A study of Mus musculus with 7 samples.

Results

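Tcf7, Lef1, Satb1, Bach2, Ets1, Foxp1, Myb, Ikzf1, Id2 and Id3 encode transcription factors and inhibitors of transcription factors, listed here together as factors of naive T cell identity. The name of the list is not a result of these data, and not all of its genes are particular to naive cells. They were chosen by gene symbol, as 10 of the 34745 genes of the deposited table, and each symbol had a single row. Their RNA was counted in sequencing libraries of naive CD4 T cells (helper T cells before their first contact with antigen), which had been taken from the spleen by negative selection and not cultured. The mice were male C57BL/6 animals aged 8 weeks that had received no particular treatment, and controls were littermates. The wild-type (WT) group had 3 mice. The PIK3CD GOF group had 4 mice heterozygous for a Pik3cd allele with gain of function (GOF). Pik3cd is the gene of the p110delta catalytic subunit of phosphoinositide 3-kinase, and the labels do not name the mutation. The study asked which genes are expressed differently in naive CD4 T cells of the 2 genotypes. Each library is labelled as a separate replicate, and that each is a separate mouse follows from the stated group sizes.

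TCF-1, the product of Tcf7, and LEF-1 are HMG-box proteins that bind the same DNA letters, open chromatin during T cell development and keep mature T cells able to renew. SATB1 organises chromatin loops, and BACH2 is a repressor that competes with AP-1 at its sites and restrains effector genes. ETS1, FOXP1 and Ikaros (Ikzf1) keep resting T cells quiescent, c-Myb acts in progenitors and in renewing or activated lymphocytes, and ID2 and ID3 have no DNA-binding part and block E proteins by pairing with them. Signals through phosphoinositide 3-kinase and AKT exclude FOXO1 from the nucleus, and FOXO1 is a known activator of naive T cell genes.

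The members all lay on mm10, as deposited. Tcf7 was at chr11:52252371-52283014 on the minus strand, Lef1 at chr3:131110471-131224356 on the plus strand, Satb1 at chr17:51736187-51833290 on the minus strand, and Bach2 at chr4:32238804-32586108 on the plus strand. Ets1 was at chr9:32636221-32757820 and Ikzf1 at chr11:11685003-11772926, both on the plus strand. Foxp1 was at chr6:98925338-99522721 and Myb at chr10:21124936-21160905, both on the minus strand. Id2 was at chr12:25093801-25096092 on the minus strand and Id3 at chr4:136143497-136145755 on the plus strand. All 10 are protein-coding in GENCODE M21. Rows of other genes that overlapped them held at most 1.53% of the member's count in any library, the highest being Gm20696 over Foxp1.

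Promoter windows are shown for 3 of the 4 members that differed between the genotypes in the test below (Myb, Bach2 and Lef1). They are the 250 bases before a RefSeq transcript start, on build GRCm38.p6 (the same assembly as mm10), written 5′ to 3′ on the gene's strand. The Myb window is chr10:21160985-21161234 (minus strand), the Bach2 window chr4:32417185-32417434 (plus strand, within the deposited gene) and the Lef1 window chr3:131110073-131110322 (plus strand). The window of Id2, the remaining member, overlaps an annotated Id2 exon and is not printed. Capitals mark a TCF/LEF motif (CTTTGA or CTTTGT) or an ETS motif (CCGGAAG), read on either strand.
Myb: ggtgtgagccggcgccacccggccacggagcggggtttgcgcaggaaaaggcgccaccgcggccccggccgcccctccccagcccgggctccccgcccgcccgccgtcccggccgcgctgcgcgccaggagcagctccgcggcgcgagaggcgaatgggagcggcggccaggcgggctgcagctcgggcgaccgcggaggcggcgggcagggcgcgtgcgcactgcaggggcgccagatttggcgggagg
Bach2: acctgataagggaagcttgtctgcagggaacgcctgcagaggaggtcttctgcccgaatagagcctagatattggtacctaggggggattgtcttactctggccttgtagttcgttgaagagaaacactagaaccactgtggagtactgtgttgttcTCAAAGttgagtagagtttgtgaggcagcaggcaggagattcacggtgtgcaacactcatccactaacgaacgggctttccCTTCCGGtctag
Lef1: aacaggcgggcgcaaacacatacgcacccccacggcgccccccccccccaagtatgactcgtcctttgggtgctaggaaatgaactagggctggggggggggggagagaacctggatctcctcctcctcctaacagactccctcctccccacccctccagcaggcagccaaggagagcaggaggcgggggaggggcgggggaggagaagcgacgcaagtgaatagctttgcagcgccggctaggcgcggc
The Bach2 window held a TCF/LEF motif that began 93 bases before the start and an ETS motif that began 12 bases before it. The printed Myb and Lef1 windows held neither of them. They also held no match, on either strand, to the FOXO motif GTAAACA, the E-box letters CACCTG or the E-box letters CAGCTG. The Ikaros motif TTGGGAA and the AP-1/BACH motif TGACTCA were absent from both too. A further RefSeq start of Lef1, 45823 bases inside the gene, had 3 TCF/LEF motifs in its window. Over the 20 windows of the 9 members in the table, 8 windows of 5 members had a TCF/LEF motif, against 27.6% of all 32851 windows. The Satb1 windows at chr17:51812185-51812434 and chr17:51812055-51812304 overlap and share the same motif, which is thus counted for each. All 8 windows lie within the deposited genes, and some overlap exons of their own gene. E-boxes were in 5 of the 20 windows, against 27.7% of all windows, and the ETS motif in 2 of the 20, against 6.91%. FOXO, Ikaros and AP-1/BACH motifs were in no member's window, and in 3.17%, 4.77% and 4.46% of all windows. These are matches of letters and not sites of binding, and absent letters say nothing about the factors.

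The 7 libraries held 14497957 to 16293539 counts each, and all 10 members were counted in every library and passed the filter on low counts. Values below are CPM (counts per 1000000, with library totals scaled by the TMM method) unless FPKM, which also divides by a length for each gene, is named. Defining markers of T cells were present, with Cd3e, Cd4 and Trac in all libraries, and the 13 CD4 T cell markers summed to 6182 to 6442 CPM in WT and 8677 to 9632 CPM in GOF. Most markers of other blood cells were also higher in GOF libraries. The 19 myeloid markers summed to 80.6 to 128 CPM in WT and 239 to 765 CPM in GOF, highest in GOF replicates 1 and 3 (723 and 765), and none was at 0 in all libraries of a group. Of the other-cell markers tested, 17 of 19 myeloid, 11 of 17 B cell, 12 of 14 NK and CD8 T cell markers (all but Cd8a and Cd8b1) and 10 of 11 neutrophil and 6 of 11 red blood cell and platelet markers were higher in GOF and 0 lower in edgeR, and their part in the results below was not tested. The sums for 17 B cell markers were 442 to 617 CPM in WT and 901 to 1512 CPM in GOF, those for 14 NK and CD8 T cell markers 79.3 to 101 and 159 to 239 CPM, and those for 12 neutrophil markers 0.551 to 9.55 and 66.6 to 226 CPM, with Camp and Ly6g at 0 in all WT libraries. The 9 stroma markers went the other way, at 364 to 425 CPM in WT and 191 to 267 CPM in GOF, nearly all of it Pecam1 (log2 fold change -0.75, edgeR adjusted p = 0.00271), which leukocytes also carry, and Pdgfra and Ccl19 were at 0 in every library. In such bulk samples, fewer cells of a type and less RNA per cell cannot be told apart. GOF replicates 2 and 4 had myeloid sums of 239 and 269 CPM, also above WT. Fits below without GOF replicates 1 and 3 therefore cannot separate other-cell RNA from genotype. The mutated gene, Pik3cd, was lower in GOF (log2 fold change -0.80, edgeR adjusted p = 0.0154), and its counts do not show the allele.

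Of the 10 members, 1 was higher in GOF (Myb) and 3 were lower (Id2, Bach2 and Lef1), at a Benjamini-Hochberg adjusted p under 0.05 in edgeR's quasi-likelihood test over 12668 genes. Over all genes tested 31.3% were called, 16.8% higher and 14.5% lower, so a share of 4 in 10 is near the background. The median log2 fold change of the members was 0.02, beside 0.01 over all genes tested. In the plot of CPM by library, the groups are apart for the 4 called members and overlap for the other 6, and 39.8% of all tested genes had groups that did not overlap.

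**Figure D1:**
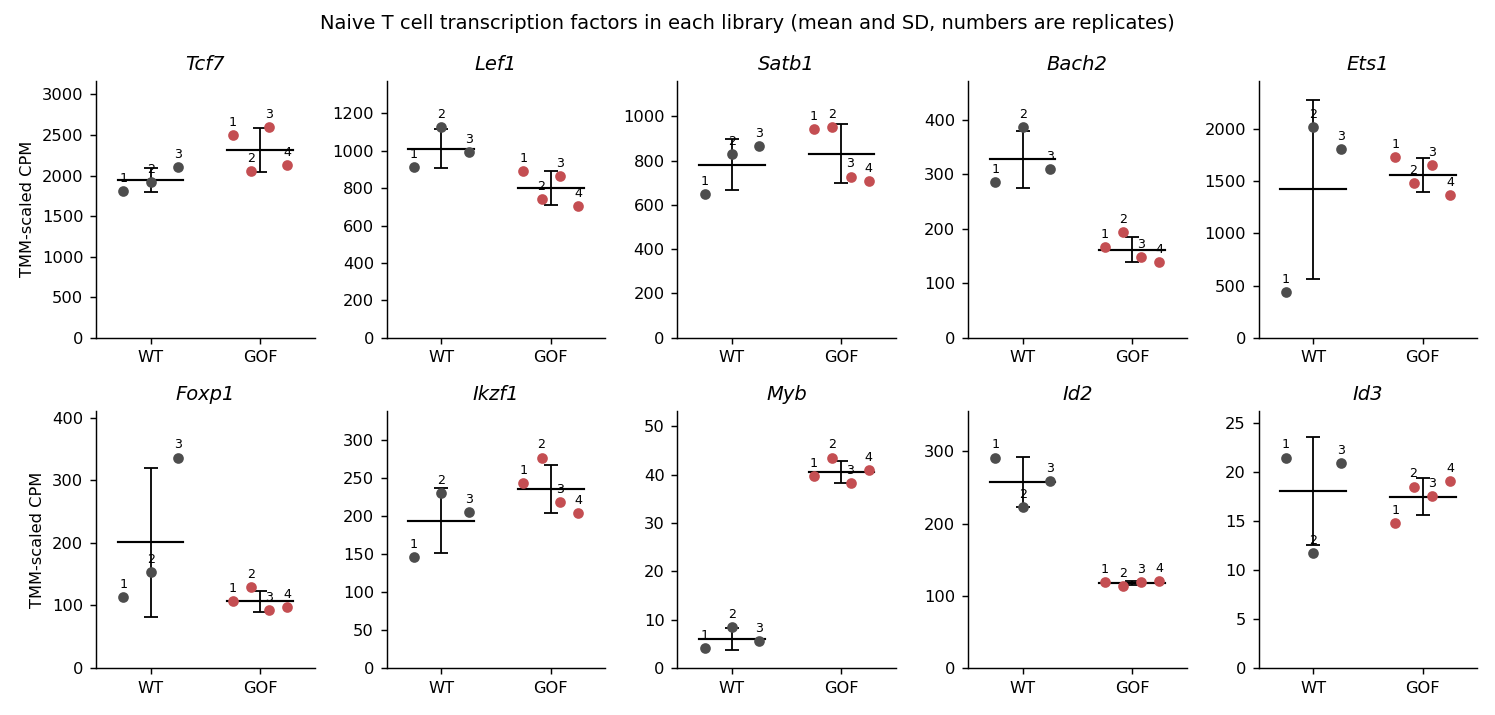
TMM-scaled CPM (linear axis from 0, a separate scale for each gene) of the 10 factors in 3 WT libraries (grey) and 4 GOF libraries (red), with the group mean (horizontal line) and SD (bar), and numbers giving the replicate. Myb lies at 38.3 to 43.6 CPM in GOF and at 4.02 to 8.54 CPM in WT, Id2 and Bach2 are lower in all GOF libraries, and 1 WT library stands apart for Ets1 (replicate 1) and for Foxp1 (replicate 3).

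Of the HMG-box pair, Lef1 was lower in GOF and Tcf7 did not pass the threshold. Tcf7 stood at 1815, 1925 and 2107 CPM in WT replicates 1 to 3 and at 2502, 2051, 2595 and 2127 CPM in GOF replicates 1 to 4, the order used for all genes below. GOF replicates 1 and 3 were the highest, and GOF replicate 2 lay below WT replicate 3, so the groups overlapped. The fitted log2 fold change of 0.25 (SE 0.11) did not pass (edgeR adjusted p = 0.117). It passed after quantile normalization in limma (0.34, adjusted p = 0.0345) and without GOF replicates 2 and 4 (0.40, edgeR adjusted p = 0.0371), while without GOF replicates 1 and 3, whose other-cell markers were highest, it was 0.09 (edgeR adjusted p = 0.638).

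Lef1 was counted at 915, 1125 and 995 CPM in WT and at 892, 742, 865 and 707 CPM in GOF. No GOF library reached the WT range, but GOF replicate 1 was close under WT replicate 1. The mean of Lef1 was 1012 ± 106 CPM in WT and 801 ± 90.7 CPM in GOF (SD, n = 3 and n = 4), and its log2 fold change was -0.34 (SE 0.11, edgeR adjusted p = 0.0480). The direction held in all 19 alternatives listed in the closing section, but 3 of them passed the threshold. With library totals as the only scaling the log2 fold change was -0.26 (edgeR adjusted p = 0.116). It was also lost without GOF replicate 1, 2, 3 or 4 or WT replicate 2 or 3 (edgeR adjusted p = 0.0501 to 0.129).

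The ratio of Lef1 to Tcf7 within a library does not depend on the scaling between libraries. In FPKM it was 0.183, 0.212 and 0.171 in WT and 0.129, 0.131, 0.121 and 0.120 in GOF, with a mean of 0.189 ± 0.0210 (SD, n = 3) against 0.125 ± 0.00557 (SD, n = 4). Every GOF library thus had less Lef1 per Tcf7 than every WT library. The ratio was formed from members chosen with results known and is given without a test. Of the other genes of the TCF/LEF family, Tcf7l1 had 3.31 to 4.02 CPM in GOF and 3.65 to 5.60 CPM in WT (edgeR adjusted p = 0.445). Tcf7l2 lay under 4 CPM in every library (edgeR adjusted p = 0.202).

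Bach2, the AP-1 competitor, was about as much lower as Id2. Its level was 286, 387 and 311 CPM in WT, against 166, 194, 149 and 139 CPM in GOF. The lowest WT library was above the highest GOF library, and GOF replicates 1 and 3 lay between 2 and 4. The mean of Bach2 was 328 ± 52.5 CPM in WT and 162 ± 23.7 CPM in GOF (SD, n = 3 and n = 4), 2.02-fold lower, and the log2 fold change was -1.02 (SE 0.14, edgeR adjusted p = 0.000773). It was -0.98 without GOF replicates 1 and 3 (edgeR adjusted p = 0.0128) and between -1.11 and -0.88 with any 1 library left out. B cells also carry Bach2, and the part of their RNA in these values was not tested.

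Its relative Bach1 and 1 of 3 small MAF partners were lower too. Bach1, the BACH protein that represses heme-regulated genes, fell from 71.1 ± 15.5 to 31.6 ± 4.95 CPM (log2 fold change -1.17, edgeR adjusted p = 0.00116). The ratio of Bach2 to Bach1 FPKM was 1.87, 1.61 and 1.52 in WT and 1.56, 2.23, 1.71 and 1.91 in GOF, and the groups overlapped. Among the small MAF proteins, with which BACH proteins pair to bind DNA, Mafg was counted at 70.5, 82.8 and 74.4 CPM in WT and at 28.1, 29.7, 27.1 and 28.3 CPM in GOF. It fell 2.68-fold (log2 fold change -1.42, SE 0.09, edgeR adjusted p = 1.41e-05). Mafk (log2 fold change 0.34, edgeR adjusted p = 0.0609) and Maff (-0.31, edgeR adjusted p = 0.180) did not pass. Prdm1, the gene of BLIMP-1 and a known target of BACH2 repression, fell from 20.2 ± 5.64 to 8.91 ± 2.00 CPM (log2 fold change -1.18, edgeR adjusted p = 0.00623).

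Satb1, the chromatin organiser, did not differ beyond its spread. It was counted at 651, 829 and 865 CPM in WT and at 943, 950.4, 728 and 707 CPM in GOF. GOF replicates 1 and 2 lay above the WT range and replicates 3 and 4 inside it. The log2 fold change was 0.09 (SE 0.15, edgeR adjusted p = 0.672).

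Ets1 varied most among the WT libraries, at 434, 2016 and 1812 CPM, against 1736, 1484, 1655 and 1372 CPM in GOF. WT replicate 1 had 6042 counts where the others had at least 21336. The log2 fold change was 0.14 (SE 0.41, edgeR adjusted p = 0.83), and without WT replicate 1 it turned to -0.30 (edgeR adjusted p = 0.0902). Of 6311 tested genes with at least 20 CPM in all other libraries, 17 had in WT replicate 1 less than 0.5 times the level of every other library, by a rule chosen after the Ets1 values were seen. Besides Ets1, Cbl, a ubiquitin ligase of receptor signalling, was among them (78.9 CPM, next lowest library 203 CPM). The same count was 6 and 10 for WT replicates 2 and 3 and 7 to 16 for the GOF libraries.

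ETS relatives went both ways. Ets2 rose from 50.3 ± 6.86 to 79.3 ± 7.49 CPM (log2 fold change 0.66, edgeR adjusted p = 0.00397) and Elf4, a factor of T cell quiescence, from 226 ± 37.2 to 337 ± 19.6 CPM (0.58, edgeR adjusted p = 0.00520). Elf1 fell from 435 ± 71.2 to 316 ± 30.1 CPM (-0.46, edgeR adjusted p = 0.0193). Elf1 no longer passed when WT replicate 2, WT replicate 3 or GOF replicate 3 was omitted (edgeR adjusted p = 0.0545 to 0.0560). In all, Elf1 lost its call in 8 of 19 alternatives and kept its direction. Fli1, Gabpa and Elf2 did not pass (edgeR adjusted p = 0.258, 0.738 and 0.973).

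Foxp1 had 1 WT library far above the rest. It was counted at 113, 153 and 336 CPM in WT and at 107, 129, 92.4 and 96.5 CPM in GOF. WT replicate 3 was over 2 times every other library, and GOF replicate 2 lay above WT replicate 1. The log2 fold change was -0.92 (SE 0.32, edgeR adjusted p = 0.0562). It was -0.33 without WT replicate 3 (edgeR adjusted p = 0.206) and passed without WT replicate 1 (-1.20, edgeR adjusted p = 0.0146), so the size of the difference rests on WT replicate 3. Foxp3, its family member that defines regulatory T cells, was counted at 32.9, 29.8 and 29.0 CPM in WT and at 72.9, 70.1, 68.4 and 76.6 CPM in GOF. It rose 2.36-fold (log2 fold change 1.24, SE 0.10, edgeR adjusted p = 3.16e-05; 1.25 without GOF replicates 1 and 3), and Foxp4 did not pass (0.26, edgeR adjusted p = 0.182).

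Ikzf1 was counted at 146, 229 and 205 CPM in WT and at 243, 276, 218 and 203 CPM in GOF. The groups overlapped, with WT replicate 1 the lowest of all. The log2 fold change was 0.28 (SE 0.16, edgeR adjusted p = 0.220), and of the alternatives run it passed after quantile normalization in limma alone (0.43, adjusted p = 0.0465). Of its 4 relatives, 1 was higher, 2 were lower and 1 did not pass. Ikzf2, the gene of Helios, which regulatory T cells carry at high levels, was counted at 8.19, 11.4 and 7.31 CPM in WT and at 36.4, 53.3, 35.4 and 39.7 CPM in GOF. It rose 4.60-fold (log2 fold change 2.20, SE 0.21, edgeR adjusted p = 0.000103), and by 2.37 on the log2 scale without GOF replicates 1 and 3. Ikzf4, the gene of Eos, a partner of FOXP3 in regulatory T cells, went the other way, from 51.4 ± 12.5 to 18.7 ± 6.52 CPM (-1.46, edgeR adjusted p = 0.00429). Ikzf5 fell from 57.3 ± 2.83 to 44.4 ± 1.49 CPM (-0.37, edgeR adjusted p = 0.0116), and Ikzf3, the gene of Aiolos, overlapped between the groups (0.56, edgeR adjusted p = 0.158). The call of Ikzf5 was lost in 4 of 19 alternatives, with its direction kept. Of the summed FPKM of the 5 Ikaros family genes, Ikzf1 held 43.7% to 51.6% in WT and 50.2% to 53.3% in GOF, while Ikzf2 per Ikzf1 went from 0.0295 ± 0.00653 (SD, n = 3) to 0.110 ± 0.0142 (SD, n = 4).

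**Figure D2:**
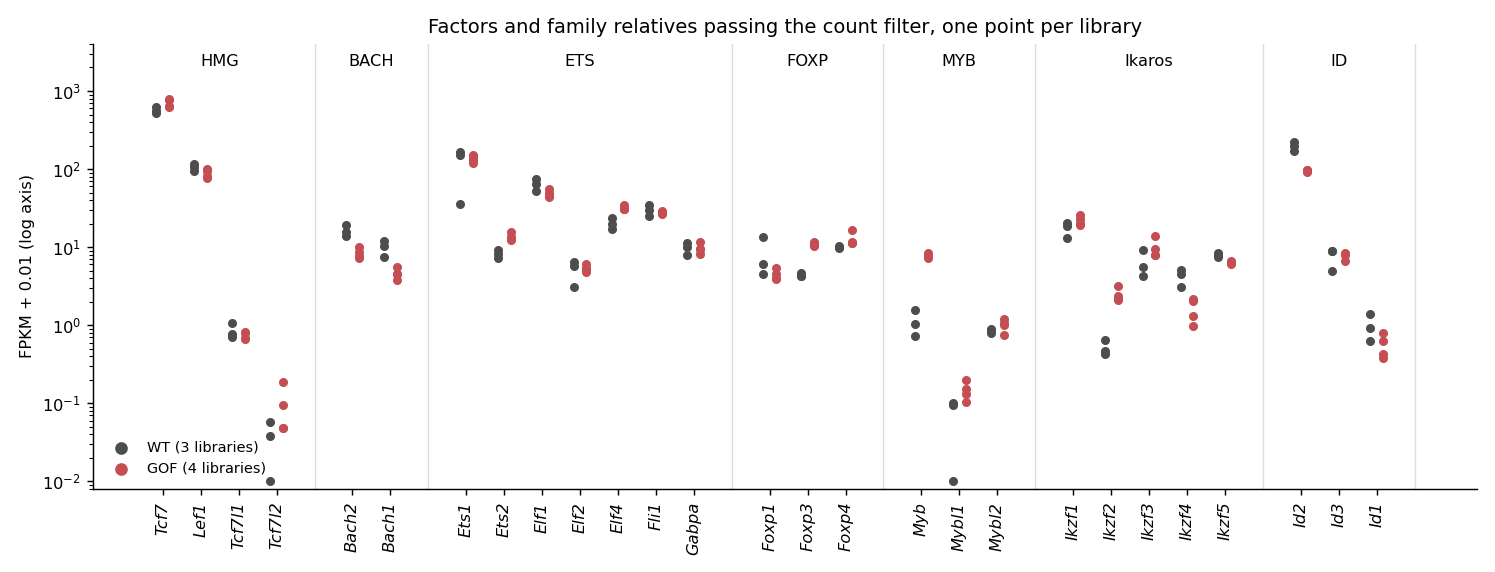
FPKM plus 0.01 (log axis) of the factors and of their family relatives that passed the count filter, with 1 point per library for 3 WT (grey) and 4 GOF (red) libraries, for 7 families (Satb1 had no relative that passed). Tcf7, Id2, Ets1 and Lef1 are the highest of the 10 factors in WT; Ikzf2, Foxp3 and Myb are higher in all GOF libraries, and Bach2, Bach1, Ikzf4 and Id2 lower.

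Myb had the largest change of the members. It was counted at 4.02, 8.54 and 5.57 CPM in WT, from 56, 124 and 80 counts, and at 39.6, 43.6, 38.3 and 41.03 CPM in GOF, from 609 to 682 counts. The GOF libraries were within 6 CPM of each other and all far above WT. The mean of Myb was 6.04 ± 2.30 CPM in WT and 40.6 ± 2.26 CPM in GOF (SD, n = 3 and n = 4). Myb thus rose 6.72-fold, with a log2 fold change of 2.75 (SE 0.23, edgeR adjusted p = 5.14e-05). A change at least this large in either direction was fitted for 4.18% of the tested genes. Without GOF replicates 1 and 3, whose other-cell markers were highest, the log2 fold change of Myb was 2.80 (edgeR adjusted p = 0.00112). Progenitors also use c-Myb, and the part of other cells' RNA in the Myb values was not tested. The Myb relative Mybl2, a gene of dividing cells, was at 4.83 ± 0.267 CPM in WT and 5.46 ± 1.02 CPM in GOF (log2 fold change 0.18, edgeR adjusted p = 0.586).

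Id2, the inhibitor that effector and innate lymphocytes carry at high levels, was counted at 292, 223 and 259 CPM in WT and at 119, 113, 119 and 121 CPM in GOF. The GOF libraries were nearly alike and all below WT. Id2 averaged 258 ± 34.4 CPM in WT and 118 ± 3.21 CPM in GOF (SD, n = 3 and n = 4), 2.19-fold lower, with a log2 fold change of -1.13 (SE 0.10, edgeR adjusted p = 5.93e-05). It was -1.15 without GOF replicates 1 and 3 (edgeR adjusted p = 0.00281). NK and myeloid cells also carry Id2, and the part of their RNA in these values was not tested.

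Id3, the inhibitor that naive cells are known for, was counted at 21.5, 11.7 and 20.96 CPM in WT and at 14.8, 18.5, 17.6 and 19.1 CPM in GOF. Its mean FPKM in WT was above that of 60.1% of the tested genes. WT replicate 2 was the lowest, and the GOF values lay inside the WT range. The log2 fold change was -0.04 (SE 0.22, edgeR adjusted p = 0.895), and its sign depended on the setting. Id2 exceeded Id3 in FPKM in every library, 24.5, 34.4 and 22.3 times in WT and 14.5, 11.03, 12.2 and 11.4 times in GOF. The size of this ratio depends on the lengths that the FPKM imply, 1270 bases for Id2 and 2293 bases for Id3.

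The E proteins that ID proteins block did not pass. Tcf3, the gene of E2A, was at 112 ± 8.31 CPM in WT and 108 ± 1.85 CPM in GOF (log2 fold change -0.06, edgeR adjusted p = 0.642). Tcf12, the gene of HEB, was at 111 ± 16.04 and 104 ± 28.4 CPM (-0.10, edgeR adjusted p = 0.748), and Tcf4 was under 4 CPM in every library. The summed FPKM of Id2 and Id3 over that of Tcf3, Tcf4 and Tcf12 was 15.8, 11.8 and 13.3 in WT and 6.41, 6.12, 7.24 and 7.53 in GOF. There was less inhibitor RNA per E protein RNA in each GOF library than in any WT library, and Id2 made up most of the inhibitor sum in each. The size of that ratio also depends on the lengths that the FPKM imply.

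**Figure D3:**
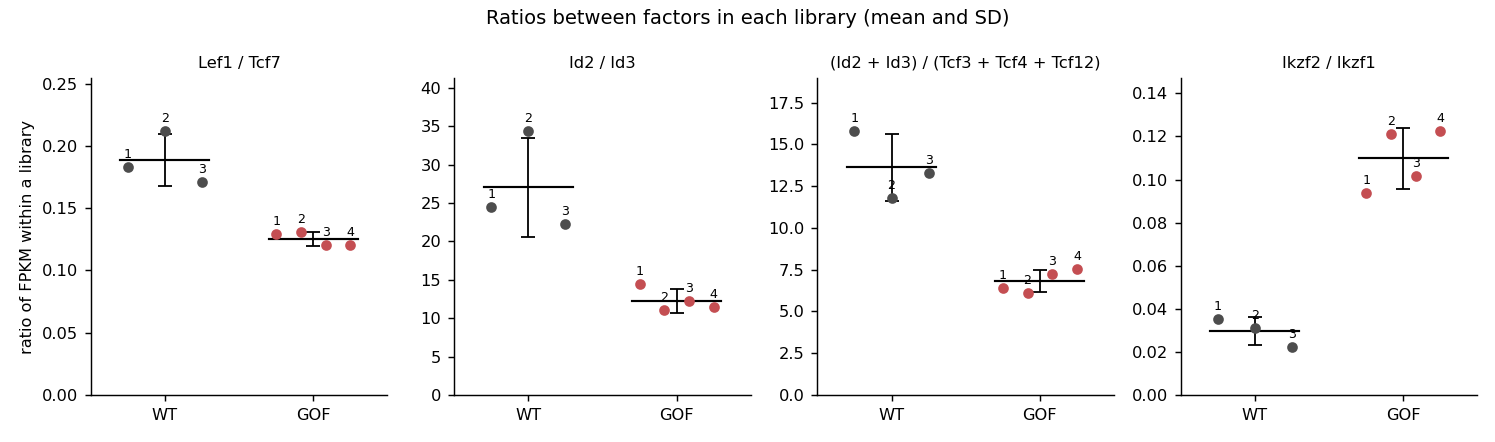
Ratios of FPKM between factors within each library (linear axes from 0) for 3 WT (grey) and 4 GOF (red) libraries, with mean (line) and SD (bar), and numbers giving the replicate. Lef1 per Tcf7, Id2 per Id3 and ID per E protein RNA are lower in every GOF library, and Ikzf2 per Ikzf1 is higher (0.110 against 0.0295).

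In WT libraries the order of the members by mean FPKM was Tcf7 (564 ± 49.0), Id2 (197 ± 25.5), Ets1 (118 ± 71.6), Lef1 (106 ± 11.3), Satb1 (22.9 ± 3.56), Ikzf1 (17.3 ± 3.90), Bach2 (16.3 ± 2.61), Foxp1 (8.04 ± 4.85), Id3 (7.63 ± 2.33) and Myb (1.09 ± 0.414; SD, n = 3 for each). Neighbours whose WT values overlapped were Ets1 and Lef1, Satb1 and Ikzf1, Ikzf1 and Bach2, and Foxp1 and Id3. Tcf7 exceeded 99.5% of the tested genes in WT and Myb 23.5%. In GOF, Id2 (94.8 ± 2.44 FPKM; SD, n = 4) ranked behind Tcf7 and Ets1 (136 ± 14.8 FPKM), and Myb (7.73 ± 0.433 FPKM) was level with Id3 (7.79 ± 0.827 FPKM) and above Foxp1 (4.47 ± 0.707 FPKM). These ranks depend on the lengths that the FPKM imply, from 1270 bases for Id2 to 33133 bases for Satb1. For Id3 the implied length (2293 bases) is more than the span of the gene (2259 bases). It is therefore not the length of a single transcript, and how the lengths were derived is not given in the sources used here. By mean CPM in WT, Id2 (258) lay below Ets1 (1421), Lef1 (1012), Satb1 (782) and Bach2 (328). By mean CPM in GOF, Myb (40.6) lay below Foxp1 (106).

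**Figure D4:**
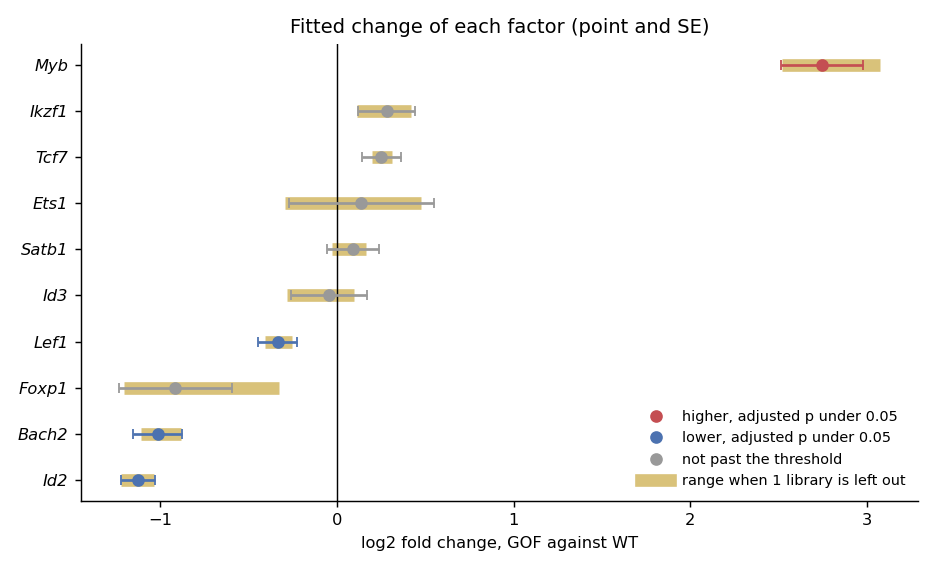
Fitted log2 fold change, GOF against WT, of the 10 factors (point) with its SE (thin bar), coloured by the edgeR call (red higher, blue lower, grey not past the threshold), and the range when any 1 of the 7 libraries is left out (thick bar). Myb stays between 2.52 and 3.08, while Ets1 runs from -0.30 to 0.47 and Foxp1 from -1.20 to -0.33.

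Around group means, the members with the highest correlation over the 7 libraries were Bach2 and Ikzf1 (r = 0.90) and Satb1 and Ikzf1 (r = 0.88), on log2(CPM + 0.5). The values are a description only, of libraries whose sums of other-cell markers differ. The lowest were Myb and Id2 (r = -0.99) and Ikzf1 and Id2 (r = -0.88). Myb ranged from 4.02 to 8.54 CPM in WT and from 38.3 to 43.6 CPM in GOF. Id2 ranged from 223 to 292 CPM in WT and from 113 to 121 CPM in GOF. The r of Myb and Id2 thus rests mainly on the WT libraries, where Myb had 56, 124 and 80 counts. Among 11397 other protein-coding genes, those most like Tcf7 were Snx4, Ncr1 (an NK cell receptor) and Stx6 (r = 0.9988, 0.9988 and 0.989). Lyrm7, Ctc1 and C1ra were most like Lef1 (r = 0.9903 to 0.9928). Zfp148, Dock8 and Ralgapa2 were most like Bach2 (r = 0.992 to 0.994), and Crip1, Mdk and Cfdp1 most like Id2 (r = 0.991 to 0.996). These are the highest of 11397 correlations over 7 libraries, where such r values can arise by chance, and none was tested. Ncr1 had 4, 6 and 10 counts in WT replicates 1 to 3.

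The counts of 3 related gene lists and of effector factors stand beside the 16.8% of all tested genes that were higher and the 14.5% that were lower. Of 22 family relatives 18 were tested, with 4 higher and 4 lower and a median log2 fold change of 0.08. Of 26 tested partners and cofactors 2 were higher and 6 lower (median -0.08), and with library totals as the only scaling 7 were higher and 4 lower, so this split depends on the scaling. Over all genes that scaling moved the calls from 2130 higher and 1838 lower to 2527 and 1428. Beside Mafg, Tle1, a Groucho corepressor that TCF-1 and LEF-1 recruit, fell from 21.6 ± 1.47 to 9.78 ± 0.304 CPM (log2 fold change -1.14, edgeR adjusted p = 0.000215). Ctnnb1, the gene of beta-catenin, their coactivator, fell from 245 ± 18.1 to 189.9 ± 15.8 CPM (-0.37, edgeR adjusted p = 0.0150), and Jup, its homologue plakoglobin, rose from 8.30 ± 2.12 to 16.8 ± 3.67 CPM (1.02, edgeR adjusted p = 0.0102). Crebbp, the acetyltransferase CBP, fell by 0.48 on the log2 scale, and Runx2 rose from 1.75 to 6.28 CPM (edgeR adjusted p = 0.00660 and 0.00182). Without GOF replicates 1 and 3 the log2 fold changes of Ctnnb1, Crebbp and Jup were -0.28, -0.44 and 0.71 and did not pass (edgeR adjusted p = 0.123, 0.0664 and 0.0962). In that smaller set 1 partner was higher and 2 lower, and over all genes 1074 were higher and 1050 lower.

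The other genes of the naive T cell program split evenly, with 7 of 20 higher, 7 lower and a median of -0.09. Those that fell included the survival gene Bcl2 (1238 ± 70.8 to 181 ± 11.4 CPM), Slamf6 (491 to 206 CPM), the egress receptor S1pr1 (909 to 449 CPM) and the kinase gene Txk (285 to 139 CPM), with edgeR adjusted p-values of at most 0.00101. Higher were Dtx1, a ubiquitin ligase of the Notch pathway (27.1 ± 5.78 to 590.1 ± 20.9 CPM), Treml2 (94.6 to 276 CPM), Gfi1, a transcriptional repressor (5.72 to 29.7 CPM) and Foxo1 itself (252 ± 31.5 to 582 ± 50.8 CPM), with edgeR adjusted p-values of at most 8.70e-05. The list thus holds genes that changed in opposite directions, as the 10 factors do. Gfi1 and Dtx1 were low in WT (means of 0.93 and 2.75 FPKM), so the split depends on which genes were listed.

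Among transcription factors of effector cells 10 of 19 were higher and 2 lower, with a median log2 fold change of 0.85, against 16.8% higher, 14.5% lower and a median of 0.01 over all genes tested. The 4 higher ones with the smallest p were Maf, Eomes, Bcl6 and Tbx21, at 5.08-fold (Bcl6) to 10.6-fold (Tbx21), and the 2 lower ones were Hif1a (-1.16, edgeR adjusted p = 0.00175) and Prdm1. Without GOF replicates 1 and 3 the count was 7 higher and 2 lower. NK cells carry Tbx21 and Eomes, and the NK and cytotoxic genes of the marker list were higher in GOF (the list summed to 159 to 239 CPM against 79.3 to 101 CPM). The CD8 chain genes of that list did not pass (Cd8a -0.78 and Cd8b1 -0.23 on the log2 scale, edgeR adjusted p = 0.0972 and 0.300). The part of these cells in the count was not tested.

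**Figure D5:**
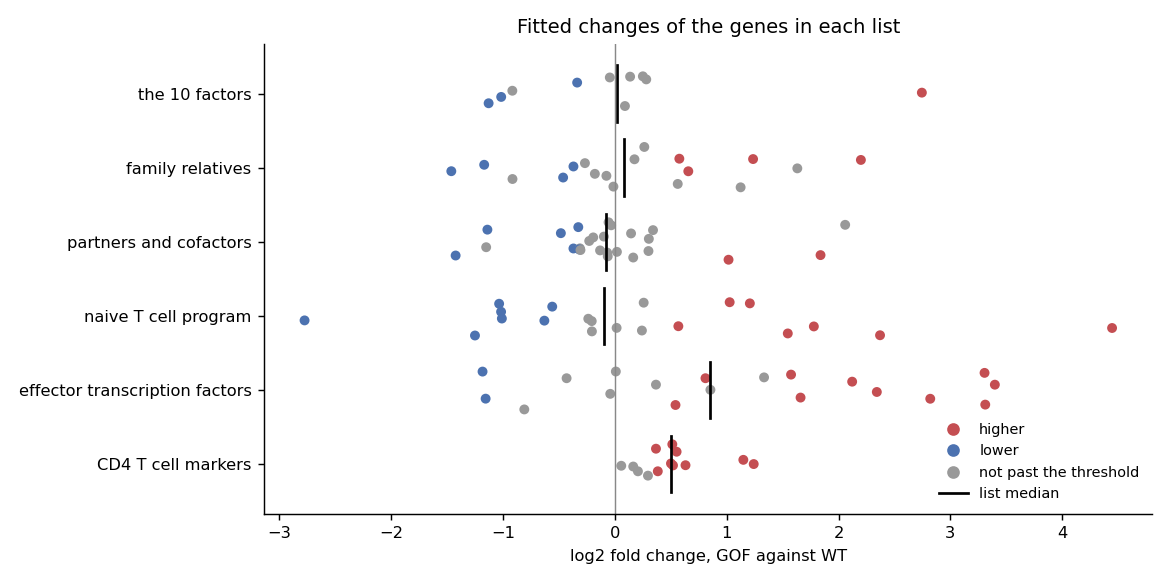
Log2 fold change, GOF against WT, of each tested gene of 6 lists (points, spread vertically for visibility; red higher, blue lower, grey not past the threshold in edgeR) with the list median (black line). The 10 factors lie on both sides of 0 with a median of 0.02, while effector transcription factors have a median of 0.85 and CD4 T cell markers one of 0.50.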

How the data were processed

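The authors deposited 1 table for the whole series with a raw count and an FPKM for each gene and library. Per the submitters' processing notes, HISAT2 2.0.4, Cufflinks 2.1.1, Cuffdiff and the build mm10 were used; what each did, how reads were counted and whether strand was used is not given in the sources used here. Deposited FPKM values equalled the count per library total and per a fixed length for each gene (within 0.1% for 100% of values). Where a symbol had 2 rows (Itgam) the one with more counts was used.

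Counts of all 7 libraries were tested with edgeR 4.0.16 (R 4.3.3; filterByExpr with a minimum count of 10, TMM, quasi-likelihood F test), and p-values were adjusted over the 12668 genes kept. SEs come from the fold change and the F statistic. The script was tested on simulated data. DESeq2 1.42.0, limma 3.58.1 and the other alternatives are given in the closing section. No libraries of a group agreed within sampling noise. Members and lists were chosen with earlier results of these data known. Named genes are the 10 members, up to 4 called genes per list and direction with the smallest p, the 3 genes most alike to Tcf7, Lef1, Bach2 and Id2, and Pik3cd; Tcf7l1, Tcf7l2, Mafk, Maff, Foxp4, Fli1, Gabpa, Elf2, Mybl2, Ikzf3, Tcf3, Tcf4, Tcf12, Cbl, Cd3e, Cd4, Trac, Cd8a, Cd8b1, Pdgfra, Ccl19, Camp, Ly6g and Gm20696 were named after their values were seen.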

Additional observations from a re-analysis of the deposited data

Results flagged for a closer look

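In the 4 GOF libraries, 3 of 38 genes examined had a library that stood apart from the other 3 by Dixon's criterion, which chance meets in about 1 in 20 groups. Bcl2 was at 198 CPM in GOF replicate 2, above the others. Elf4 was at 366 CPM in GOF replicate 2, also above the others. Txk was at 102 CPM in GOF replicate 1, below the others. None of the 10 factors was among them, and groups of 3 such as WT were not examined, so the Ets1 and Foxp1 values of single WT libraries fall outside this criterion.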

How the results depend on the processing

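With 3 and 4 libraries, SEs of the factors ran from 0.10 (Id2) to 0.41 (Ets1) on the log2 scale. Myb was higher and past the threshold in all 18 alternatives that held it (its mean is under 5 FPKM, so at that minimum 0 factors were higher). Bach2 and Id2 kept direction and call in 18 of 19; with a score of the myeloid markers (log2) as covariate, which itself separates the genotypes, they were -0.81 and -1.21 (adjusted p = 0.301 and 0.0520), 0 factors were lower, and 199 genes were higher and 169 lower. That covariate turned Tcf7 to -0.22, Ets1 to -0.0322, Id3 to 0.33 and Jup to -0.0071. Lef1 lost its call with library totals only (-0.26), upper-quartile scaling (-0.26), no filter (-0.33), at least 5 FPKM (-0.29), limma on log2(FPKM + 1) (-0.26), on log2(FPKM + 0.1) (-0.26) and after quantile normalization (-0.19), without GOF replicates 2 and 4 (-0.19), with the replicate block (-0.29) and with the covariate (-0.80); with any 1 library left out it ran from -0.41 to -0.26. Tcf7 passed after quantile normalization (0.34) and without GOF replicates 2 and 4 (0.40), Ikzf1 after quantile normalization (0.43) and Foxp1 with no filter (-0.91). In all, 3 factors were higher after quantile normalization and 2 without GOF replicates 2 and 4. Leaving out 1 library gave -0.0294 to 0.17 for Satb1, -0.30 to 0.47 for Ets1, -1.20 to -0.33 for Foxp1 and -0.28 to 0.10 for Id3. Id3 also turned with library totals only (0.0313), upper-quartile scaling (0.0296), at least 5 FPKM (0.004), limma on log2(FPKM + 1) (0.0623) and log2(FPKM + 0.1) (0.0752), and without GOF replicates 1 and 3 (0.0484). Over all genes, 1093 were higher and 1071 lower at 5 FPKM, where fewer genes were tested, and 1074 and 1050 without GOF replicates 1 and 3. With no filter the median of all genes moved to 0.10. The cause of these changes was not tested. Replicate numbers showed no clear pairing of the mice: same-numbered libraries had correlations of 0.05, 0.11 and -0.02 over genes, and not every library correlated best with its own number. So few libraries cannot exclude a pairing. With the replicate block 1646 genes were higher and 1549 lower. Of 521 alternative values of 28 named list genes, 490 kept direction and call.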
